A study of Mus musculus with 24 samples.

Results

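The genes described are 38 macrophage and dendritic cell genes of mouse liver, chosen by symbol, out of 19037 genes with a probe kept for testing. They comprise 5 Kupffer cell genes, 10 pan-macrophage and myeloid genes, 3 leukocyte surface genes, 4 Fc receptor and adaptor genes, the 3 C1q chains, 4 recruited monocyte genes, 4 genes of lipid- and scar-associated macrophages, and 5 dendritic cell and MHC class II genes. Each gene is represented by its brightest probe, and all 38 had a probe that was kept.

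RNA was hybridised to 24 single-colour arrays, 4 in each of 6 groups. The labels give the tissue as liver, but the shared extraction protocol covers both liver samples and sorted cells and does not say which arrays, if any, came from sorted cells; a level here can therefore depend on a sort that is not stated. WT denotes wild type and dKO denotes mice lacking both Foxa1 and Foxa2, 2 forkhead transcription factors that open chromatin at liver genes. The groups were untreated WT females, untreated dKO females, treated WT females, treated dKO females, treated WT males and treated dKO males, and no untreated males were among the samples. Treated mice received the carcinogen DEN (diethylnitrosamine) once at 20 mg/kg when 14 to 15 days old, and afterwards 8 injections of the tumour promoter TCPOBOP at 3 mg/kg spaced 2 weeks apart. The labels call every sample liver tumour, the untreated ones included, and give neither the strain, the age at collection, the cell type in which the genes were deleted, nor whether the 4 arrays of a group came from separate animals, so p-values measure only the spread between these arrays.

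Kupffer cells are the resident macrophages of the liver sinusoids and take up blood-borne particles, haemoglobin complexes and dying cells. Under injury, monocytes that carry Ccr2 follow its ligand Ccl2 out of the blood, and part of the cells that mature from them take on a lipid-handling state marked by Trem2 and Gpnmb. Dendritic cells and activated macrophages present antigen on MHC class II molecules, whose chains are assembled on Cd74. Macrophages of every kind depend on PU.1, a factor of the ETS family that binds purine-rich sites, whereas Foxa factors bind forkhead sites in the DNA of hepatocytes and bile duct cells.

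The 250 bases before the RefSeq start site are shown for 7 members, because these genes carry the contrast between Kupffer cells and incoming macrophages or stand for C1q. Sequences are from RefSeq on GRCm38.p6, 5′ to 3′ on the strand of the gene, and capitals mark GGAAGT, a core of PU.1-type sites, or its reverse complement.
Clec4f, chr6:83656117-83656366, minus strand: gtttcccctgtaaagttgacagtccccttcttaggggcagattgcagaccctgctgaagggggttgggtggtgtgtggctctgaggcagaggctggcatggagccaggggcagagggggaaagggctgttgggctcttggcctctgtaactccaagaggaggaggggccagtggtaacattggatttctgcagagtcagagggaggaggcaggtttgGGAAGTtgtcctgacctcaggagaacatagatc
Timd4, chr11:46810549-46810798, plus strand: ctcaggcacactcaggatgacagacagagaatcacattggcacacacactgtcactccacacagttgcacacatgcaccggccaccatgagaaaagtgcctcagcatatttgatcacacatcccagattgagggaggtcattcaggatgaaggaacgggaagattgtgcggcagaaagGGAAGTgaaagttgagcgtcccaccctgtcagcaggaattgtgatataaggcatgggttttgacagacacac
Cd163, chr6:124304401-124304650, plus strand: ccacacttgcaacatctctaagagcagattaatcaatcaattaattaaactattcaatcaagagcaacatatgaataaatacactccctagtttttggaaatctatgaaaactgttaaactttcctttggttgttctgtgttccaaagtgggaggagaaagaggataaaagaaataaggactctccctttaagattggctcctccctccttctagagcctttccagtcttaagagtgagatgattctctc
Cx3cr1, chr9:120068297-120068546, minus strand: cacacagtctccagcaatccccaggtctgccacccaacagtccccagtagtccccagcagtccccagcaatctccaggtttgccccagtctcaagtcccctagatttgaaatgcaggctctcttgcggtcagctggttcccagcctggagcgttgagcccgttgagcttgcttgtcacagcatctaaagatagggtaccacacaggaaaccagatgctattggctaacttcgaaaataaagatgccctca
Trem2, chr17:48346151-48346400, plus strand: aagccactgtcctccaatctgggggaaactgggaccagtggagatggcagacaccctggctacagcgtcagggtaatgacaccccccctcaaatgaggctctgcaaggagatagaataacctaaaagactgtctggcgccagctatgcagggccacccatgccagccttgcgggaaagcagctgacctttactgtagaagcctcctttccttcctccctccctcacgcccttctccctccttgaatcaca
Gpnmb, chr6:49036268-49036517, plus strand: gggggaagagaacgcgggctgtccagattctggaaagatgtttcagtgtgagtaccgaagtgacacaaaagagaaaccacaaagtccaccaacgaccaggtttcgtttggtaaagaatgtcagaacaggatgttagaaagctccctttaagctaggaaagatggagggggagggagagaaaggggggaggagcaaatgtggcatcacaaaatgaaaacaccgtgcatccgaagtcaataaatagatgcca
C1qc, chr4:136892915-136893164, minus strand: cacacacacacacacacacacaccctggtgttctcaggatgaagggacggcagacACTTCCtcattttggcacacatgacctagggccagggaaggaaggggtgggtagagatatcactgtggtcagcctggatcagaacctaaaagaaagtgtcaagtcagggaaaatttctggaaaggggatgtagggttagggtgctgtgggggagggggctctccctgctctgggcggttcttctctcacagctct
The Clec4f, Timd4 and C1qc windows each hold the core, and those of Cd163, Cx3cr1, Trem2 and Gpnmb do not hold these letters. RefSeq's table had a window of this length for 29 members. Of these 29, 12 (41.4%) held GGAAGT on either strand in a window, beside 22.2% of all 27025 genes with a window. The longer string AGGAAGT, whose matches are all also GGAAGT matches, was in 7 of the 29 (24.1%) and in 8.8% of all genes with a window. The forkhead string TGTTTAC was in 0 of the 29 members and in 3.54% of all genes with a window. The variant TGTTTGC was in 1 member, Fcgr3, and in 4.93% of all genes with a window. These are letter matches in a short window and describe no binding.

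Values are log2 of the deposited processed signal minus the 75th percentile of each array, which is called the level below; a difference of 1 is 2-fold. The share of spots well above background ran from 50.4% to 68.4% over the arrays, and the 75th percentile ranged from 433.1 to 959.9 intensity units. Of the 38 members, 33 were above background on all 24 arrays, and the other 5 (Cx3cr1, Itgam, Trem2, Gpnmb and Mmp12) were so on 11 to 22. Foxa1 averaged -2.30, -3.15 and -2.64 in untreated WT females, treated WT females and treated WT males and was not well above background on any dKO array, at least 6.00-fold lower in each dKO group than in its WT counterpart. Foxa2 ranged from 3.55 to 4.92 on WT arrays and from -7.32 to -1.93 on dKO arrays. The number of arrays limits the precision of every value.

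The arrays numbered 4 stood apart from the rest. Over all 19037 genes, the array numbered 4 of each group lay close to the mean of the linear signals of the other 3 arrays of its group, with a median distance of 0.087 to 0.125 on the log2 scale, against 0.178 to 0.413 for the arrays numbered 1 to 3 measured the same way. Its value fell inside the range of the other 3 for 68.8% to 83.6% of genes, against 26.3% to 60.6% for the arrays numbered 1 to 3. Over the members, this was so in 213 of 228 cases for arrays numbered 4 and in 243 of 684 for the others. The labels do not say whether these arrays are of RNA from further animals or of mixed RNA, and this was not tested. The tests below use all 24 arrays, 4 per group. For each comparison, the count over the members is followed by the count from the 18 arrays numbered 1 to 3, which leaves fewer degrees of freedom as well. Several counts within lists, and most counts of markers of other cell types, are given for 24 arrays only.

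Calls are at a limma adjusted p under 0.05 over all 19037 genes (Benjamini-Hochberg), and fold changes are log2 differences ± SE. In RNA of mixed cells, fewer cells of a type and less RNA per cell cannot be told apart, and whether any array held sorted cells is not stated. The treated WT males all sat at position 1 of their slide and the treated dKO females all at position 4. Treated WT females sat at positions 1 and 2, and treated dKO males at 3 and 4. Position and group could thus be separated only in part. Between the genotypes of treated mice no position was shared in either sex. Position fits of those comparisons rest on a trend over the other groups, so they cannot tell genotype from position. Between the genotypes, position as a covariate ended 4 of 5 member calls in untreated females. It ended 17 of 17 in treated females and 5 of 5 in treated males. For treatment it ended 7 of 26 calls in WT females and 21 of 26 in dKO females. For sex in dKO mice it ended 4 of 5, and for genotype by treatment 2 of 2. Position fits are given below for some single genes only, so a call without one need not have held.

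**Figure D1:**
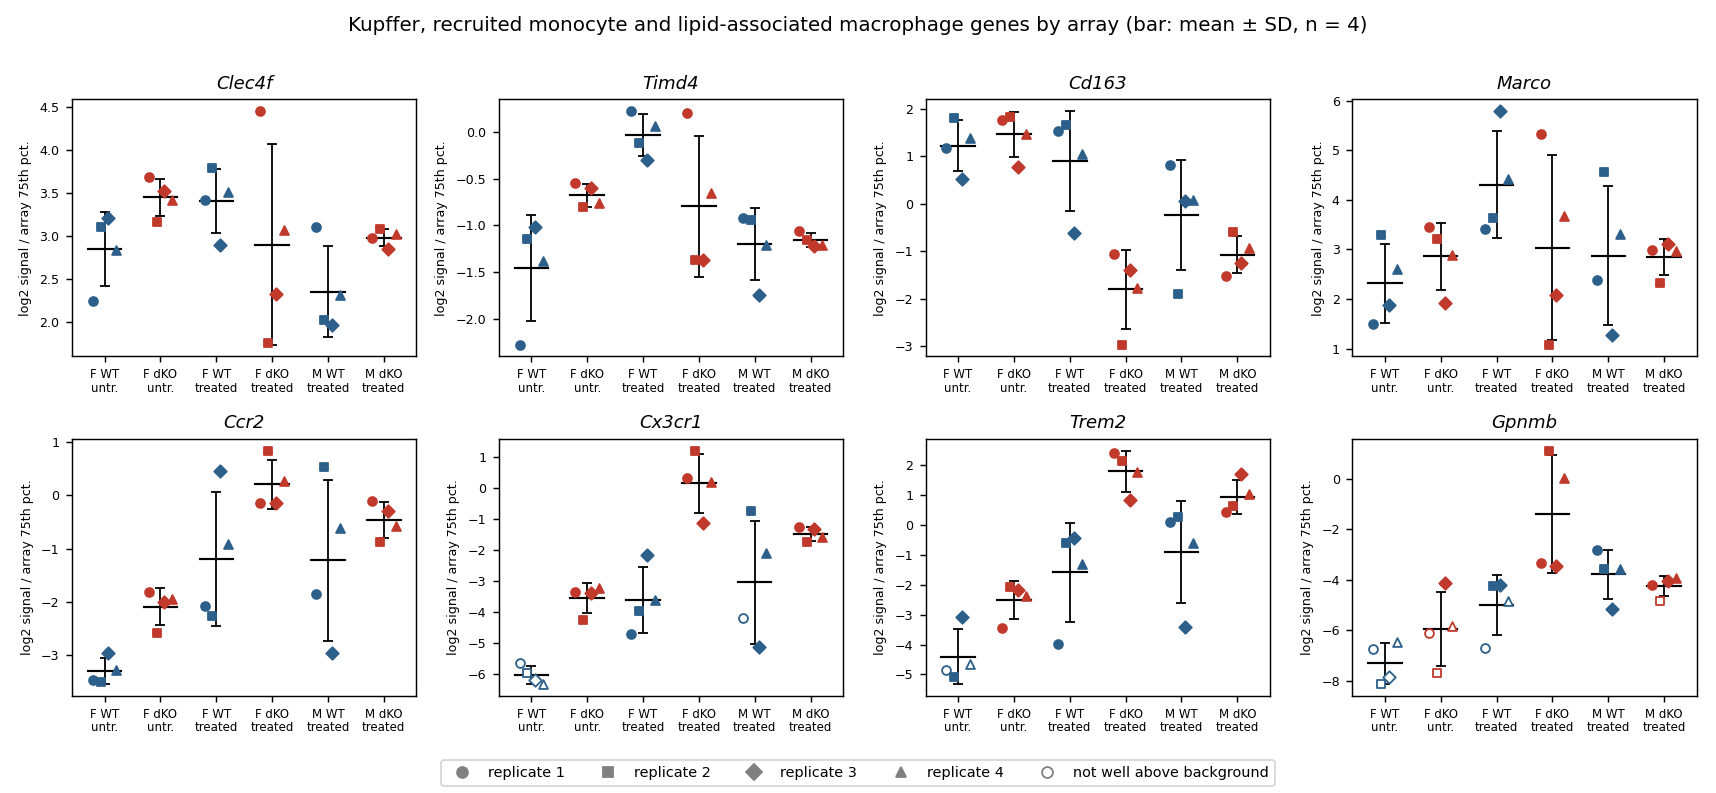
Level of 8 members on each of the 24 arrays, as log2 signal minus the array's 75th percentile (vertical axis), by group (horizontal axis); blue is WT, red is dKO, marker shape gives the array number, open symbols are not well above background, and bars are the mean ± SD (n = 4). Cd163 averages lowest in treated dKO females, Cx3cr1 and Trem2 average highest there, and Clec4f, Timd4 and Marco spread most among the same 4 arrays.

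Between treated dKO and treated WT females, the Kupffer cell genes and the other members lay on opposite sides of 0. In treated dKO females, Cd163 fell by 2.70 ± 0.54 on the log2 scale against treated WT females (limma adjusted p = 0.0010), while Cx3cr1 rose by 3.76 ± 0.69 (adjusted p = 0.0006). Both calls also passed with 18 arrays, at adjusted p = 0.0407 and 0.0249. The differences of all 5 Kupffer genes were below 0 in that comparison, from -2.70 to -0.50, and those of the other 33 members were above 0, but the other 4 Kupffer genes did not pass. Between the genotypes of untreated females the 5 Kupffer genes were all above 0, like the other members, from 0.24 to 1.14, and 0 of the 5 passed.

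Cd163, the scavenger receptor for haptoglobin-haemoglobin complexes (probe at mm9 chr6:124280484-124280543), gave levels of 1.17, 1.80, 0.52 and 1.39 in untreated WT females and of 1.77, 1.82, 0.79 and 1.48 in untreated dKO females. After treatment it gave 1.54, 1.65, -0.62 and 1.04 in WT females and -1.07, -2.97, -1.40 and -1.77 in dKO females. All 4 treated dKO females lay below all 12 other female arrays. Treatment lowered Cd163 in dKO females by 3.27 ± 0.54 (a log2 difference; adjusted p = 0.0002, and 0.0172 with 18 arrays), with no overlap between the groups. In WT females the treatment difference was -0.32 ± 0.54 (adjusted p = 0.739). The difference between these 2 treatment effects was -2.94 ± 0.76 (adjusted p = 0.0306 with 24 arrays, 0.366 with 18). The treated males gave 0.82, -1.90, 0.05 and 0.07 in WT and -1.52, -0.60, -1.24 and -0.92 in dKO, which overlap because of WT male array 2, and the difference of -0.83 ± 0.54 did not pass (adjusted p = 0.286). On the 2 slides that hold both treated female groups, the Cd163 difference was -3.31 and -2.35. With slide position as a covariate the treated female difference was -1.41 and lost its call (adjusted p = 0.676).

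Timd4, a receptor for phosphatidylserine on dying cells (probe at mm9 chr11:46657173-46657232), gave -2.28, -1.14, -1.02 and -1.38 in untreated WT females and 0.22, -0.11, -0.30 and 0.06 in treated WT females. These groups did not overlap, and Timd4 rose by 1.42 ± 0.29 with treatment (adjusted p = 0.0027, and 0.0833 with 18 arrays). In dKO females it gave -0.54, -0.81, -0.60 and -0.76 untreated and 0.21, -1.36, -1.38 and -0.66 treated, where array 1 was the high one and arrays 2 and 3 the low ones. There the treatment difference was -0.12 ± 0.29 (adjusted p = 0.780), and the genotype by treatment term was -1.54 ± 0.41 (adjusted p = 0.0361, and 0.368 with 18 arrays). Treated males gave -0.92, -0.94, -1.75 and -1.21 in WT and -1.06, -1.15, -1.22 and -1.21 in dKO. All treated WT males were below all treated WT females, with a difference of -1.17 ± 0.29 (adjusted p = 0.0199, and 0.281 with 18 arrays).

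Clec4f, the lectin that marks mouse Kupffer cells (probe at mm9 chr6:83595281-83595339), gave 2.25, 3.11, 3.21 and 2.84 in untreated WT females, 3.69, 3.17, 3.53 and 3.43 in untreated dKO females, 3.43, 3.80, 2.90 and 3.51 in treated WT females, and 4.45, 1.76, 2.34 and 3.07 in treated dKO females. The treated dKO females thus spanned the levels of every other female group, from array 2 as the lowest to array 1 as the highest. In males it gave 3.11, 2.02, 1.97 and 2.32 in WT and 2.98, 3.08, 2.85 and 3.03 in dKO. Clec4f passed in none of the 7 pairwise comparisons, with differences from -1.05 to 0.63.

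Vsig4, a complement receptor of resident macrophages, gave -0.51, 0.86, 0.50 and 0.33 in untreated WT females and 1.70, 1.17, 1.40 and 1.47 in untreated dKO females, which did not overlap, but the difference of 1.14 ± 0.45 did not pass (adjusted p = 0.119). In treated dKO females it gave 2.10, -0.31, -0.12 and 0.84, in the same order of arrays as Clec4f. Marco, a scavenger receptor for particles and bacteria, gave 3.40, 3.63, 5.79 and 4.42 in treated WT females and 5.33, 1.08, 2.08 and 3.67 in treated dKO females, and the difference of -1.27 ± 0.77 did not pass (adjusted p = 0.227). Marco, Vsig4 and Clec4f passed in none of the 7 pairwise comparisons.

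Over the 5 Kupffer genes, the genotype by treatment term was below 0 for each, from -2.94 to -1.11 with a median of -1.68, and 2 passed with 24 arrays and 0 with 18 in limma (2 members at an unadjusted p under 0.05). In that contrast 5.16% of all genes passed, 2.47% as higher and 2.68% as lower. The median treated female difference between genotypes was -0.76 for the Kupffer genes and -0.07 for all genes. Without treated dKO female arrays 2 and 3 that median turned to 0.19, and the median treatment difference in dKO females, -0.55 with all arrays, turned to 0.31. The median treated male difference between genotypes was 0.04.

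The recruited monocyte genes averaged higher in every other female group than in untreated WT females. Cx3cr1, the fractalkine receptor (probe at mm9 chr9:119959018-119959077), gave -5.66, -5.97, -6.19 and -6.33 in untreated WT females, all not well above background, and -3.34, -4.26, -3.39 and -3.23 in untreated dKO females. Treated females gave -4.71, -3.97, -2.15 and -3.62 in WT and 0.31, 1.20, -1.13 and 0.20 in dKO. No array of the treated dKO females overlapped any other female array. Treatment raised Cx3cr1 in dKO females by 3.70 ± 0.69 (adjusted p = 0.0005, and 0.0216 with 18 arrays). In untreated dKO females it was at least 2.83-fold and in treated WT females at least 2.72-fold above untreated WT females, bounds set by the dimmest probes that are well above background (adjusted p = 0.0274 and 0.0213, and 0.302 and 0.189 with 18 arrays). A dimmer probe of Cx3cr1 gave -0.20 and -0.22 in those 2 comparisons but 2.20 between the genotypes of treated females. Treated males gave -4.21, -0.75, -5.12 and -2.11 in WT and -1.26, -1.74, -1.33 and -1.57 in dKO, and the difference of 1.57 ± 0.69 did not pass (adjusted p = 0.105). Within 2 slides the treated female genotype difference was 3.36 and 4.91, and with position as a covariate it was 3.00 (adjusted p = 0.458).

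Ccr2, the receptor that draws monocytes into tissue, gave -3.47, -3.49, -2.96 and -3.27 in untreated WT females, -1.82, -2.58, -2.0 and -1.94 in untreated dKO females, -2.07, -2.26, 0.46 and -0.91 in treated WT females, and -0.15, 0.83, -0.14 and 0.27 in treated dKO females. Every dKO or treated female array lay above every untreated WT female. Treatment raised Ccr2 by 2.10 ± 0.57 in WT and 2.29 ± 0.57 in dKO females (adjusted p = 0.0165 and 0.0043, and 0.177 and 0.0605 with 18 arrays). The genotype difference in treated females, 1.40 ± 0.57, did not pass (adjusted p = 0.0710).

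Its ligand Ccl2 gave levels between -2.49 and -2.07 in untreated WT females and between -0.85 and -0.61 in untreated dKO females. In treated females it gave -0.56, -1.14, 4.33 and 2.47 in WT and 1.68, 4.99, 0.87 and 3.85 in dKO. In treated males it gave -0.50, 4.56, -1.04 and 3.13 in WT and 1.24, 0.54, 0.96 and 0.97 in dKO. Ccl2 exceeded 2 on 6 of the 24 arrays, 2 each of treated WT females, treated dKO females and treated WT males. Of these 6, 3 were arrays numbered 4. Treatment raised Ccl2 by 3.57 ± 1.16 in WT and 3.60 ± 1.16 in dKO females (adjusted p = 0.0393 and 0.0195, and 0.265 and 0.150 with 18 arrays). Untreated dKO females lay above untreated WT females without overlap, by 1.54 on average. No genotype difference of Ccl2 passed, with a standard error from the spread of all 6 groups, the widely spread treated ones included. Itgam, an integrin chain of myeloid cells, was above background on 15 arrays and passed in none of the 7 pairwise comparisons.

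**Figure D2:**
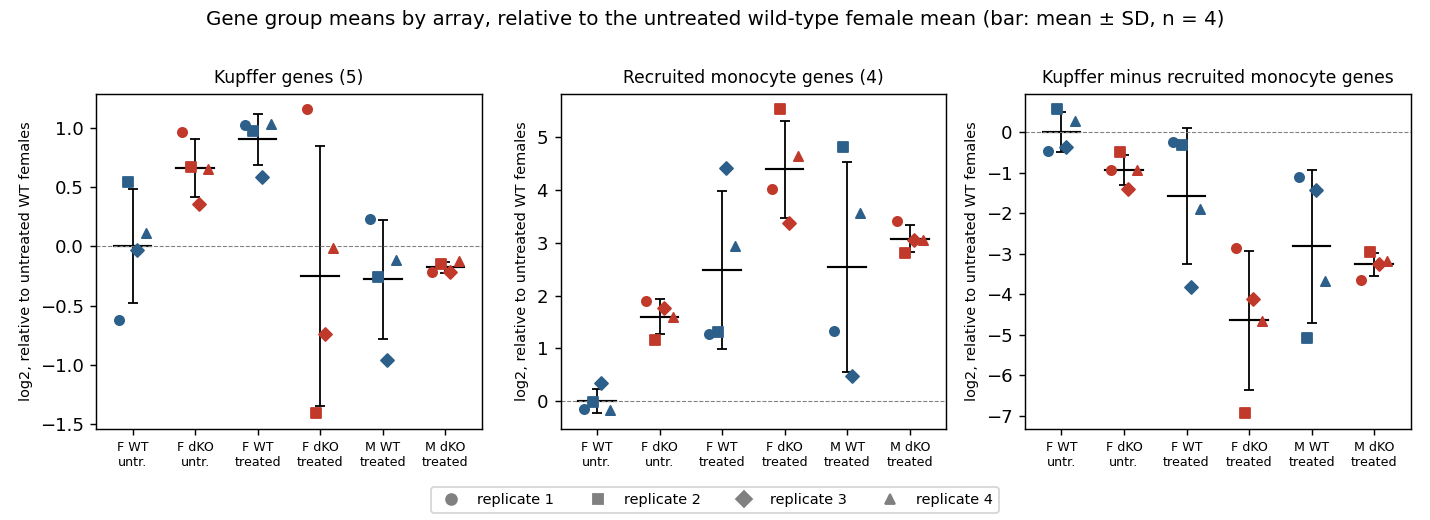
Mean over the 5 Kupffer genes, mean over the 4 recruited monocyte genes, and the first minus the second, on each array as log2 relative to the mean of untreated WT females (vertical axes), by group (horizontal axis). The mean difference was lowest in treated dKO females, whose arrays, at -6.94 to -2.87, overlapped those of the other 3 treated groups.

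Set against the mean of untreated WT females, the 5 Kupffer genes averaged 0.66 ± 0.25 (SD, n = 4) in untreated dKO females, 0.90 ± 0.21 in treated WT females, -0.25 ± 1.10 in treated dKO females, -0.28 ± 0.50 in treated WT males and -0.18 ± 0.05 in treated dKO males. The 4 recruited genes averaged 1.60 ± 0.33, 2.48 ± 1.50, 4.39 ± 0.92, 2.54 ± 2.0 and 3.08 ± 0.25 in the same order. Kupffer minus recruited was -0.94 ± 0.37 in untreated dKO females, -1.58 ± 1.68 in treated WT females, -4.65 ± 1.70 in treated dKO females, -2.82 ± 1.89 in treated WT males and -3.26 ± 0.28 in treated dKO males. Untreated WT females ranged from -0.47 to 0.56, so each other group averaged lower in this difference. The treated dKO females ranged from -6.94 to -2.87 and the treated WT females from -3.83 to -0.25, so these groups overlapped. In untreated WT females Cx3cr1 was well above background on 0 of 4 arrays and Itgam on 1 of 4, so the means over 4 recruited genes start from a level that is only a bound. Over Ccr2 and Ccl2 alone, which were above background on all 24 arrays (a choice made after seeing the data), Kupffer minus recruited was -0.72 ± 0.27 in untreated dKO females, -1.93 ± 2.08 in treated WT females, -4.57 ± 1.98 in treated dKO females, -3.23 ± 2.0 in treated WT males and -3.20 ± 0.34 in treated dKO males. These means describe unequal change within arrays and carry no test. They give no share of cells, and Ccl2 is the ligand that monocytes follow.

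The lipid- and scar-associated genes were called in 4 of 4 cases as higher in treated dKO than treated WT females (13.5% of all genes were called higher) and in 0 of 4 between the genotypes of treated males (25.3% of all genes were called). With 18 arrays 0 of 4 passed in either sex. Trem2, a lipid-sensing receptor (probe at mm9 chr17:48491522-48491581), gave -4.85, -5.09, -3.06 and -4.64 in untreated WT females and -3.44, -2.07, -2.16 and -2.37 in untreated dKO females. Treated females gave -3.98, -0.59, -0.45 and -1.32 in WT and 2.43, 2.15, 0.83 and 1.79 in dKO, with no overlap. The genotype difference in treated females was 3.38 ± 0.76 (adjusted p = 0.0027, and 0.0559 with 18 arrays), and 2.19 with position as a covariate (adjusted p = 0.646). Treatment raised Trem2 by 4.31 ± 0.76 in dKO females (adjusted p = 0.0003, and 0.0203 with 18 arrays) and by 2.83 ± 0.76 in WT females (adjusted p = 0.0153, and 0.185 with 18 arrays), where 2 of 4 untreated arrays were well above background. Treated males gave 0.11, 0.28, -3.40 and -0.59 in WT and 0.44, 0.63, 1.72 and 1.03 in dKO, which did not overlap, yet the difference of 1.86 ± 0.76 did not pass (adjusted p = 0.0811).

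Gpnmb, a lysosome-linked glycoprotein of lipid-laden macrophages (probe at mm9 chr6:49006386-49006445), gave -3.34, 1.12, -3.45 and 0.04 in treated dKO females and -6.72, -4.26, -4.19 and -4.84 in treated WT females. The groups did not overlap, but the dKO arrays fell into 2 high ones, arrays 2 and 4, and 2 low ones. Array 4 of this group lay inside the range of the other 3 arrays for 38 of 38 members. Whether it counts as a separate high array was not tested. The genotype difference was 3.60 ± 0.90 (adjusted p = 0.0058, and 0.106 with 18 arrays) and 1.90 with position as a covariate (adjusted p = 0.753). Treated males gave -2.83, -3.58, -5.16 and -3.55 in WT and -4.19, -4.84, -4.05 and -3.93 in dKO. The sex by genotype term was -4.07 ± 1.28 (adjusted p = 0.0421, and 0.316 with 18 arrays). Treatment raised Gpnmb in dKO females, with a fitted difference of 4.53 ± 0.90 (adjusted p = 0.0008, and 0.0365 with 18 arrays). Gpnmb was well above background on 1 of 4 untreated dKO and 2 of 4 treated WT female arrays, so the sizes of both differences rest partly on levels that are only bounds.

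Mmp12, the macrophage elastase, gave -4.80, -1.87, -4.63 and -2.90 in treated dKO females and -6.17, -4.82, -6.45 and -5.76 in treated WT females, where 3 of 4 arrays were not well above background. The difference was 2.25 ± 0.65 (adjusted p = 0.0134, and 0.139 with 18 arrays). Lgals3, galectin-3, gave 1.85, 4.16, 0.73 and 3.16 in treated dKO females and 0.65, 0.62, 1.29 and 0.84 in treated WT females, which overlapped. Treated males gave 1.42, 1.94, 1.53 and 1.54 in WT and 0.86, 0.73, 0.92 and 0.98 in dKO, where dKO was lower without overlap. Lgals3 rose by 1.63 ± 0.45 in treated dKO females against WT (adjusted p = 0.0102, and 0.155 with 18 arrays), and the sex by genotype term was -2.36 ± 0.63 (adjusted p = 0.0203, and 0.247 with 18 arrays). Of 15 other genes of lipid-associated macrophages, 10 rose and 1 fell in treated dKO against WT females, with Spp1 (osteopontin) higher by 3.39, Mmp13 by 3.05, Cd63 by 2.98 and Cd9 by 2.46, and 4 rose with 18 arrays. Spp1 also stands on the bile duct marker list.

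**Figure D3:**
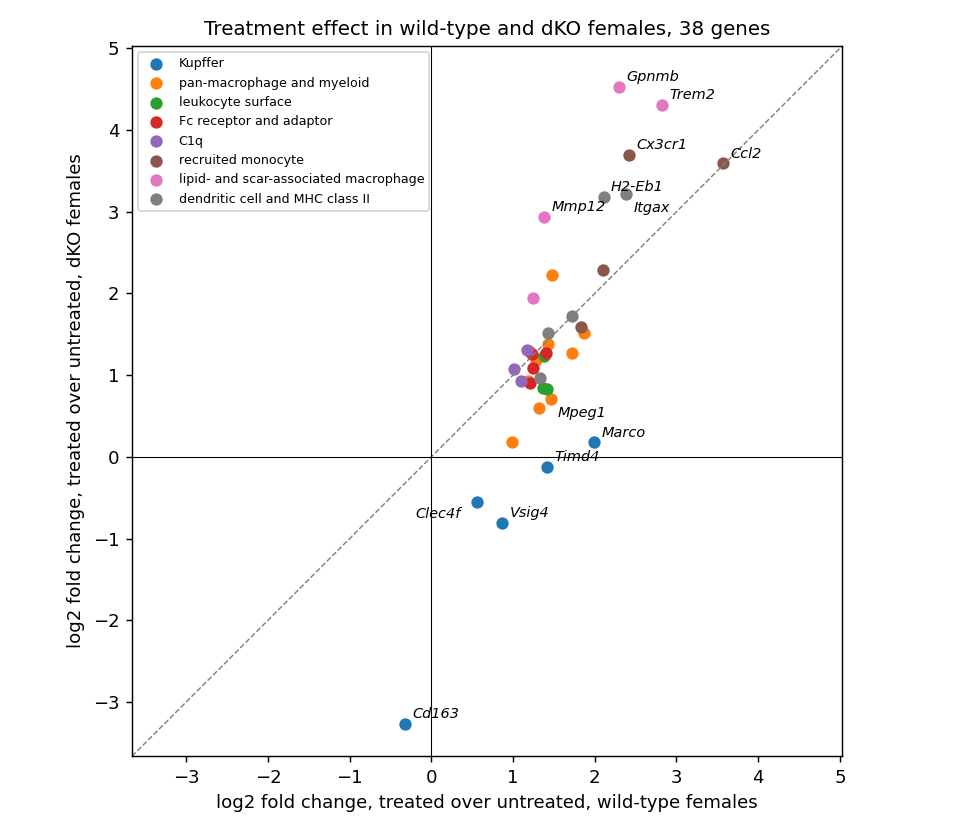
Log2 treatment difference (treated minus untreated) of the 38 members in dKO females (vertical axis) against that in WT females (horizontal axis), coloured by list; the dashed line marks equal change. Cd163, at -3.27 in dKO and -0.32 in WT, lies farthest below the line, and the 4 lipid- and scar-associated genes lie above it.

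By their brightest probes, the 3 MHC class II chains, Cd74 and Itgax averaged higher in dKO in every genotype comparison. The differences were 0.99 to 2.73 in treated females and 1.23 to 1.94 in treated males. Within the 3 slides holding both treated male groups, direction varied for Cd74 and the 3 chains. Their lowest differences on a slide were -0.72 to -0.24. With 24 arrays 4 of the 5 passed as higher in each sex, beside 13.5% of all genes in females and 14.4% in males, and with 18 arrays 0 passed in either. H2-Aa, an MHC class II alpha chain, gave -0.14, 1.98, -0.66 and 0.73 in treated WT males and 2.43, 1.73, 1.68 and 2.17 in treated dKO males, which overlapped only through WT array 2. Its difference was 1.53 ± 0.41 (adjusted p = 0.0087, and 0.0929 with 18 arrays). H2-Ab1, a beta chain, gave 3.50, 4.89, 1.98 and 3.76 in treated WT males and 5.12, 4.52, 4.80 and 5.0 in treated dKO males (difference 1.33 ± 0.44, adjusted p = 0.0299, and 0.175 with 18 arrays). Cd74, the invariant chain, differed by 1.33 ± 0.45 in treated females and 1.23 ± 0.45 in treated males (adjusted p = 0.0305 and 0.0491, and 0.205 and 0.208 with 18 arrays).

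H2-Eb1, another beta chain, varied widely within groups. It gave -1.58, -2.82, -0.43 and -1.42 in untreated WT females, -2.04, 0.85, 1.14 and 0.44 in untreated dKO females, and -2.36, 0.76, 2.72 and 1.07 in treated WT females. In treated dKO females it gave 3.32, 4.20, 2.06 and 3.54, and the genotype difference of 2.73 ± 1.01 passed with 24 arrays (adjusted p = 0.0467, and 0.211 with 18) and turned to -0.84 with position as a covariate. Itgax, an integrin chain of dendritic cells and some macrophages, gave -2.07, -1.37, 0.17 and -1.08 in treated WT females and 0.55, 1.80, 0.28 and 1.12 in treated dKO females, without overlap. The difference was 2.03 ± 0.43 (adjusted p = 0.0017, and 0.0547 with 18 arrays). A second, dimmer probe of Itgax gave -0.59 in the same comparison, -0.52 in treated males and -0.71 in untreated females. The mean of both probes did not pass (0.72 in treated females, adjusted p = 0.170). Treatment raised the brighter Itgax probe by 3.22 ± 0.43 in dKO females, which passed with 18 arrays too (adjusted p = 0.0082). The dimmer Itgax probe gave 0.28 there. Of 15 other dendritic cell and antigen presentation genes, 1 rose in treated dKO females against WT and 7 in treated males (beside the same 13.5% and 14.4% of all genes), H2-Oa by 1.46, Irf8 by 1.01 and Cd86 by 0.94 among them, and 0 with 18 arrays in either.

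In untreated females, where no carcinogen was given, 5 members rose in dKO and 0 fell (9.8% of all genes passed, 5.18% as higher and 4.62% as lower), and 0 passed with 18 arrays in limma, when 1.62% of all genes did (11 members at an unadjusted p under 0.05). They were Mpeg1, Csf1r, Ctss, Cx3cr1 and H2-Aa. The dKO and WT arrays did not overlap, with dKO higher, for 30 of 38 members, beside 11.2% of all genes, and for the same number with 18 arrays, beside 12.5%. The median difference was 1.09 over the members and -0.04 over all genes. Within the 2 slides holding both groups the member median was 0.90 and 1.39.

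Mpeg1, a pore-forming protein of phagocytes, gave 2.32, 3.62, 2.92 and 3.17 in untreated WT females and 5.08, 4.12, 4.63 and 4.62 in untreated dKO females. All dKO arrays were higher, by 1.60 ± 0.29 on average (adjusted p = 0.0013, and 0.0577 with 18 arrays). Ctss, the lysosomal protease cathepsin S, gave 2.63, 3.70, 3.48 and 3.34 in WT and 4.57, 4.28, 4.45 and 4.37 in dKO, a difference of 1.13 ± 0.32 (adjusted p = 0.0289, and 0.251 with 18 arrays). Csf1r, the receptor for the macrophage growth factor Csf1, differed by 1.12 ± 0.34 (adjusted p = 0.0435, and 0.299 with 18 arrays). WT array 1 was the lowest of its group for 30 of 38 members, and without it the calls of Csf1r, Ctss and H2-Aa were lost (adjusted p = 0.139, 0.111 and 0.125). Such losses were not particular to that array. Leaving out any 1 array of the untreated groups ended 1 to 4 of the 5 calls. It was 4 without WT array 4 and without dKO array 1, 3 or 4.

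Markers of other cell types were also called between untreated dKO and untreated WT females. Beside them, 5.18% of all genes were called higher in dKO and 4.62% lower. Of 11 bile duct markers 7 rose and 1 fell, their mean level being -1.35 to -0.70 in dKO against -3.05 to -2.60 in WT, and of 14 stellate and fibroblast markers 5 rose. Of 17 T and NK cell markers 3 rose and 1 fell, of 9 B and plasma cell markers 2 rose, and of 12 neutrophil markers 0 passed. Hepatocyte markers averaged 6.91 to 7.08 in dKO and 7.10 to 7.18 in WT. The part of these shifts in the macrophage result was not tested.

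**Figure D4:**
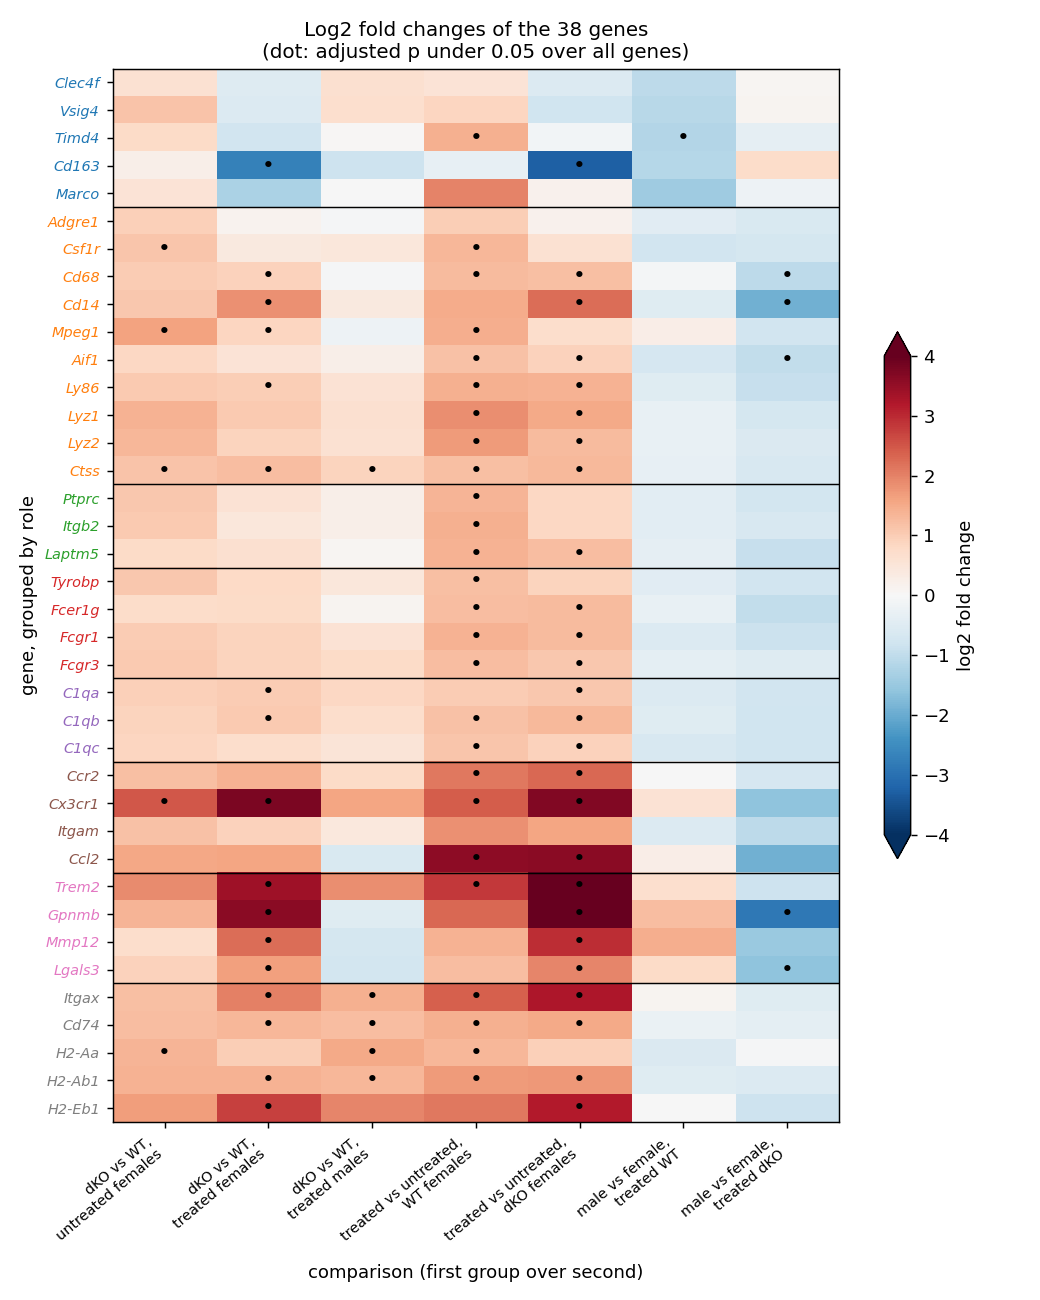
Log2 difference of the 38 members (rows, grouped by list) in the 7 pairwise comparisons (columns), on a colour scale from -4 to 4; dots mark an adjusted p under 0.05 with 24 arrays. For treated dKO against WT females all 5 Kupffer rows are below 0 and the other 33 rows are above 0.

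Treatment raised most members in females of both genotypes. In WT females 26 members rose and 0 fell (17.2% of all genes passed, 8.49% as higher and 8.7% as lower), with 29 members higher without overlap (11.1% of all genes). With 18 arrays 0 passed in limma, when 2.09% of all genes did (26 members at an unadjusted p under 0.05), and 31 members were higher without overlap, beside 12.6%. The 26 included 8 of the 10 pan-macrophage genes, all 4 Fc receptor and adaptor genes, all 3 leukocyte surface genes and 2 of the 3 C1q chains. The median difference was 1.39 over the members and -0.06 over all genes. Without treated WT female arrays 3 and 4, which had the highest Ccl2, 2 members passed.

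Lyz2, a lysozyme of macrophages and neutrophils, gave 4.02, 4.75, 4.71 and 4.42 in untreated and 5.71, 5.84, 7.01 and 6.20 in treated WT females. It rose by 1.72 ± 0.43 (adjusted p = 0.0096, and 0.133 with 18 arrays), and so did Lyz1, by 1.86 ± 0.46 (adjusted p = 0.0096, and 0.131 with 18 arrays), but these genes are near-identical copies whose probes may not tell them apart. Fcgr1, the high-affinity receptor for IgG, rose by 1.40 ± 0.36 (adjusted p = 0.0112, and 0.143 with 18 arrays). Ptprc, a phosphatase on all leukocytes, gave -0.69, 0.17, -0.04 and -0.18 untreated and 0.87, 0.54, 2.11 and 1.22 treated, a rise of 1.37 ± 0.42 (adjusted p = 0.0303, and 0.215 with 18 arrays). Adgre1, an adhesion receptor of macrophages, differed by 0.99 ± 0.38 and did not pass (adjusted p = 0.0812). Of 16 other monocyte genes 10 rose and 0 fell, with F13a1 higher by 3.19, Chil3 by 2.85 and Il1b by 2.49, and of 18 chemokines and growth factors 7 rose, with Cxcl10 higher by 3.44, Ccl3 by 2.81 and Ccl4 by 2.60. With 18 arrays 0 of either list passed in limma. Neutrophil markers averaged -4.19 to -2.67 in treated and -5.34 to -4.32 in untreated WT females, and T and NK cell markers -2.99 to -1.70 and -3.59 to -3.19, and their part was not tested.

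In dKO females treatment raised 25 members and lowered Cd163 (37.9% of all genes passed, 16.3% as higher and 21.5% as lower). The groups did not overlap for 19 members as higher, beside 13.9% of all genes. With 18 arrays Cx3cr1, Trem2, Gpnmb and the brighter probe of Itgax rose and Cd163 fell, when 13.3% of all genes passed. The C1q chains, which start the classical complement cascade, rose by 0.93 to 1.31 (3 of 3 with 24 arrays, 0 with 18). Of 13 other Kupffer genes 0 rose and 2 fell, Fabp7 by 1.74 on the log2 scale among them, which also fell with 18 arrays. Hepatocyte markers averaged 4.52 to 6.94 in treated and 6.91 to 7.08 in untreated dKO females, with 0 of 12 higher and 7 lower, and stellate and fibroblast markers averaged 1.42 to 1.91 and 0.59 to 1.12. Their part in the result was not tested.

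Between the genotypes of treated females 16 members rose in dKO and 1 fell (29.9% of all genes passed, 13.5% as higher and 16.4% as lower), and the groups did not overlap for 7 as higher and 1 as lower, beside 10.5% and 11.1% of all genes. With 18 arrays 1 rose and 1 fell, when 7.98% of all genes passed. Of the pan-macrophage genes 5 of 10 rose. Ctss gave 4.45, 4.30, 4.68 and 4.53 in treated WT and 5.85, 6.32, 4.89 and 5.82 in treated dKO females, without overlap (difference 1.23 ± 0.32, adjusted p = 0.0071, and 0.10 with 18 arrays). Cd14, the co-receptor for bacterial lipopolysaccharide, gave -0.41, -0.89, 2.14 and 0.65 in WT and 1.68, 3.69, 0.70 and 2.74 in dKO, which overlapped (difference 1.83 ± 0.67, adjusted p = 0.0451, and 0.238 with 18 arrays). Array 2 of the treated dKO females was the highest of its group for 30 members and array 3 the lowest for 31; without array 2, 7 members passed, and without array 3, 24 did.

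Other markers differed between these 2 groups as well, beside the same 13.5% of all genes called higher and 16.4% called lower. Of 14 stellate and fibroblast markers 10 rose in dKO, Col1a1 by 3.35, and of 11 bile duct markers 10 rose. Hepatocyte markers fell for 6 of 12 and endothelial markers for 6 of 14, and neutrophil markers rose for 2 and fell for 1 of 12. Of 18 chemokines and growth factors 7 rose and 1 fell, with Ccl12 higher by 3.34 and Cx3cl1, the ligand of Cx3cr1, by 3.20, and Ccl9 lower, at -1.86. All 3 also passed with 18 arrays. With position as a covariate 0 members passed, also at an unadjusted p under 0.05, the median over the recruited genes turned from 1.49 to -0.08, and Ccl2 turned from 1.57 to -1.57 without a call in either fit.

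In treated males 5 members rose in dKO and 0 fell (25.3% of all genes passed, 14.4% as higher and 10.9% as lower), with 2 members higher and 1 lower without overlap, beside 15.4% and 13.2% of all genes. None of these member counts was above the share of all genes. The members that rose were the 4 dendritic cell and MHC class II genes that passed and Ctss, which gave 4.19, 5.05, 3.07 and 4.39 in WT and 5.25, 4.87, 5.10 and 5.09 in dKO (difference 0.90 ± 0.32, adjusted p = 0.0425, and 0.187 with 18 arrays). With 18 arrays 0 passed in limma, when 10.6% of all genes did (4 members at an unadjusted p under 0.05). WT male array 2 was the highest of its group for 32 members and array 3 the lowest for 35. Without array 3 only 1 member passed, and without array 2, 12 did. Within the 3 slides holding both groups, the member median was -0.70 to 1.91, so its direction was not the same on every slide, and with position as a covariate 0 members passed, also at an unadjusted p under 0.05. Bile duct markers rose for 11 of 11, with or without the arrays numbered 4, and averaged 0.05 to 0.52 in dKO and -3.13 to -2.09 in WT males.

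**Figure D5:**
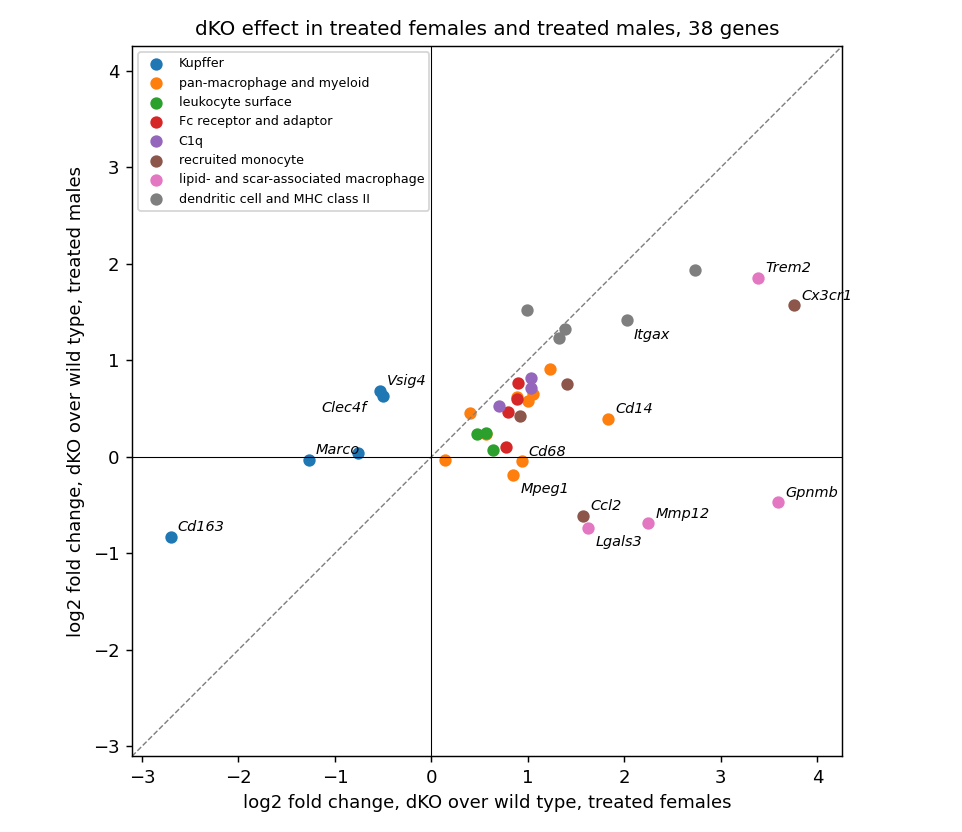
Log2 difference between dKO and WT of the 38 members in treated males (vertical axis) against that in treated females (horizontal axis), coloured by list; the dashed line marks equal change. Gpnmb, Mmp12 and Lgals3 lie above 0 in females and below 0 in males, and the MHC class II genes lie near the line.

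Sex differences were tested within each genotype. Among treated WT mice 1 member, Timd4, was lower in males and 0 were higher (6.17% of all genes passed, 3.3% as higher and 2.87% as lower). All 5 Kupffer genes were lower in males, from -1.43 to -1.05, but the other 4 did not pass, and their median within slides was -1.81 on 1 slide and 0.21 on the other. Among treated dKO mice 5 members were lower in males and 0 higher (20.4% of all genes passed, 12.5% as higher and 7.98% as lower). They were Gpnmb at -2.84 ± 0.90, Cd14 at -1.93 ± 0.67, Lgals3 at -1.60 ± 0.45, Cd68, a lysosomal membrane protein, at -1.04 ± 0.34, and Aif1, an actin-binding protein, at -0.99 ± 0.35 (adjusted p = 0.0315, 0.0477, 0.0165, 0.0379 and 0.0492). With 18 arrays 0 passed in limma in either genotype, and 1 member in each at an unadjusted p under 0.05. Without dKO female array 2, 0 members passed, and without array 3, 19 did.

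The test of the difference itself, sex by genotype, passed for 3 of 38 members, Gpnmb, Lgals3 and Mmp12, each as lower (12.5% of all genes passed, 7.25% as higher and 5.24% as lower). For Mmp12 it was -2.94 ± 0.92 (adjusted p = 0.0409, and 0.310 with 18 arrays). All 4 lipid- and scar-associated genes had a term below 0, from -4.07 to -1.53, and all 5 Kupffer genes had a term above 0, from 0.81 to 1.87, of which 0 passed. With 18 arrays 0 of all 19037 genes passed this test in limma, and 3 members did at an unadjusted p under 0.05. In the authors' deposited table, whose statistics per comparison are their own, all members called here with 24 arrays had the same sign in each of the 7 pairwise comparisons. At a false discovery rate under 5% the authors' deposited table listed 33 members for untreated females, 17 for treated females and 13 for treated males between genotypes, 36 and 32 for treatment in WT and dKO females, and 4 and 17 for sex in treated WT and dKO mice. Of the 17 members called here between genotypes of treated females, 14 were among the authors' 17. Both sets of values come from the same series, so shared signs are no independent support.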

How the data were processed

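Total RNA of 24 mouse liver samples was amplified with a WT-Ovation kit and labelled with Cy3, per the labels' protocols, and each sample was hybridised to 1 array of a 4-array Agilent slide. The deposited intensity values are Agilent Feature Extraction output, version 10.5.1.1 per the file headers and 9.53 per the submitters' processing notes; the headers also show that the processed signal is background-subtracted and detrended. A second deposited table by the authors gives 2 scores for each pairwise comparison, which its column names call a fold change and an FDR (read here as percent). No source used here states how they were computed. All scans fell on 1 day, and the 6 slides each held 4 arrays.

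Control spots and 72 to 127 outlier spots per array were left out, and no spot was saturated. The processed signal was taken to log2 and each array's 75th percentile subtracted. A probe was kept if at least 4 of the 24 arrays had it well above background (28048 of 41174), 32831 probes were named through RefSeq and the others by the array's own symbol, and each gene kept its brightest probe. limma 3.58.1 in R 4.3.3 fitted 6 group means on all 24 arrays (lmFit, eBayes), with Benjamini-Hochberg adjustment per comparison at 0.05, after the method was tested on simulated data. Figures were drawn with Python 3.11.15 and matplotlib 3.10.9. Probe positions are those of the files on mm9, and promoter windows are from RefSeq's GRCm38.p6 table.

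All 38 members are accounted for. Genes of other lists are named only where called with groups that do not overlap, at most 4 per list and comparison by size of change, and the genes named with per-array values are the Kupffer and recruited members and the most changed called members. Members and lists were chosen with earlier results of these data known. The same-numbered arrays of different groups did not pair the samples: their deviations from the group means correlated from -0.35 to 0.34, over 0.1 in at most 2 of 4 pairs of a comparison. Alternatives were another background correction, other scalings, probe rules and filters, slide, position and replicate number in the fit, and leaving out arrays. Leaving out the arrays numbered 4, and 3 pairs of arrays that stand apart, was chosen after seeing the data.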

Additional observations from a re-analysis of the deposited data

Results flagged for a closer look

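Among 228 sets of 4 arrays (38 members in 6 groups), Dixon's critical value for 4 arrays flagged an outlying array in 2 sets. Chance passes that limit in about 1 of 20 sets of 4 independent values. The arrays numbered 4 lay near the mean of the other 3, so that rate need not hold here. For the same reason the small number of flags says little about outlying arrays. Both flags fell on array 2 of the untreated dKO females, with a level of 5.47 for Lyz2 and of -4.26 for Cx3cr1. These levels were below the other 3 arrays of that group, which lie close together. That array was the lowest of its group for 30 of 38 members.

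The effect of genotype differed between the sexes of treated mice for 3 of 38 members by the interaction test with 24 arrays, beside 12.5% of all genes. They were Gpnmb at -4.07, Mmp12 at -2.94 and Lgals3 at -2.36 (males minus females, log2). The effect of treatment differed between the genotypes of females for 2 of 38 members, Cd163 at -2.94 and Timd4 at -1.54, beside 5.16% of all genes. None of these 5 terms passed with the 18 arrays numbered 1 to 3, where they were -3.67, -2.66, -2.18, -2.96 and -1.61. Neither member count was clearly above the share of all genes.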

How the results depend on the processing

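Counts are members called of 38 by limma, in the order untreated females, treated females and treated males between genotypes, treatment in WT and dKO females, sex in WT and dKO, sex by genotype, and genotype by treatment. With all 24 arrays they were 5, 17, 5, 26, 26, 1, 5, 3 and 2, and with the 18 arrays numbered 1 to 3, an alternative chosen after seeing the data, 0, 2, 0, 0, 5, 0, 0, 0 and 0. Leaving out each array in turn gave 1 to 4, 7 to 24, 1 to 12, 12 to 26, 15 to 31, 0 to 1, 0 to 19, 0 to 6 and 0 to 4. In the following, a count that is not given stayed within 1.5 times its value with 24 arrays. Fits on only the groups compared gave 29 in untreated females, 6 in treated females, 1 in treated males, 1 for sex in dKO, 0 for sex by genotype (5 at an unadjusted p under 0.05) and 1 for genotype by treatment. Position as a covariate gave 1, 0 and 0 between genotypes in the order above, 5 for treatment in dKO, 1 for sex in dKO and 0 for genotype by treatment (1 unadjusted). It also turned the treated female genotype difference to -0.084 for the median of the recruited genes and to -0.84 for H2-Eb1. Slide as a fixed block gave 1 in untreated females, 8 in treated females, 14 for treatment in WT and 0 for sex in dKO (9 unadjusted), and slide as a random block gave 3 for sex in dKO. No filter on dim probes gave 3, 11 and 3 between genotypes in the order above, 2 for sex in dKO, 1 for sex by genotype and 0 for genotype by treatment (3 unadjusted), and a filter on all 24 arrays gave 1 for sex by genotype. Normexp background gave 2 in untreated females, 16 for treatment in WT and 1 for sex by genotype. Quantile normalization, median centring and the mean of the probes of a gene each gave 3 in treated males. The causes of these changes were not tested.

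The replicate number as a block gave 3 for sex in dKO and 1 for genotype by treatment and moved no other count by over 1.5 times; the numbers do not pair the samples. Without treated WT male arrays 2 and 3, chosen after seeing the data, 0 passed for sex in WT and 0 for sex by genotype. Without treated WT female arrays 3 and 4, 2 passed for treatment in WT, 0 for sex in WT and 1 for genotype by treatment. Without treated dKO female arrays 2 and 3, 0 passed for genotype by treatment, and the Kupffer medians turned to 0.19 between genotypes and 0.31 for treatment in dKO.

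The median over all genes moved by over 0.1 with normexp in treated females between genotypes, to -0.23, for treatment in WT, to 0.09, for sex by genotype, to 0.23, and for genotype by treatment, to -0.15, and with median centring in treated males, to -0.09. All genes called higher and lower in treated females numbered 2569 and 3129, and 1725 and 5270 with normexp. With median centring the split moved from 2739 and 2072 to 1762 and 2997 in treated males, from 1617 and 1656 to 1238 and 2237 for treatment in WT, from 2372 and 1520 to 1470 and 1539 for sex in dKO, and from 1381 and 998 to 672 and 1009 for sex by genotype. The number of arrays limits the precision, and levels not well above background, as for Cx3cr1 and Mmp12, have only an upper bound.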
